A study of Homo sapiens with 23 samples.

Results

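The genes described here are NFE2L2, which encodes the transcription factor NRF2, its repressor KEAP1, and 7 NRF2 target genes of glutathione, thioredoxin, NADPH and haem metabolism: GCLM, SLC7A11, TXNRD1, SRXN1, NQO1, HMOX1 and ME1. They were taken by name from the 21463 gene rows of the authors' deposited table, which holds all 9. PC-3 is an established human prostate cancer cell line. A lentivirus had brought in a PARG cDNA with a cleavable mClover3 tag under a doxycycline-inducible (TetOne) promoter; PARG is the enzyme that breaks down poly(ADP-ribose). The 2 TetOn-PARG lines used, I4 and H6, are each a single clone and were kept for 72 h with doxycycline at 500 ng/ml or without it before poly(A) RNA was sequenced. Experiment N used passage 5 and a library kit that does not keep the strand; experiment B used passage 7, a strand-specific kit and another sequencing centre. This made 8 groups: clone I4 without and with doxycycline and clone H6 without and with doxycycline, each in N and in B. Every group had 3 wells except untreated H6 in experiment B, which had 2. Both untreated and treated cells carry the construct, and no construct-free cells were analysed here; what doxycycline does by itself and what PARG does cannot be told apart. In bulk RNA of a culture, fewer cells with a transcript and less of it per cell cannot be told apart either.

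NRF2 drives genes that defend the cell against oxidants and electrophiles. In resting cells KEAP1 binds NRF2 and hands it to a CUL3 ubiquitin ligase for degradation; when cysteines of KEAP1 are modified, NRF2 escapes, enters the nucleus, pairs with a small MAF protein and binds antioxidant response elements near its target genes. Because this control acts on the protein, the NFE2L2 transcript need not follow NRF2 activity, and the target transcripts are the usual readout. In prostate cancer cells the same genes supply glutathione, reduced thioredoxin and NADPH.

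The element that NRF2 and small MAF proteins bind was looked for in the RefSeq promoter sequences of GRCh38.p14. Genes near this element are often listed as NRF2 targets, so its presence is not independent of how the genes were chosen and is a description only. The letters searched were TGACNNNGC and a longer form, the same letters followed by A, on both strands, in 300 bases that run from 250 before to 50 after each gene start. The promoter table has 7 of the 9 genes, not SLC7A11 and HMOX1. The longer form was present for KEAP1, GCLM and TXNRD1, and ME1 held only the shorter form. NFE2L2, SRXN1 and NQO1 had no match in this window. Over all 27305 genes of the table, 16.1% held the shorter form and 3.94% the longer form. The matches for these genes that lie wholly before the start are shown as 30 bases each, read 5′ to 3′ on the strand of the element, with the matched letters in capitals.
GCLM: tggaagacaaTGACTAAGCAgaaatcgtag
KEAP1, second start: caggtcaccaTGACTAAGCAgagccgggcg
KEAP1, second start, shorter form: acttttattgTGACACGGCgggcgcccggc
TXNRD1, second start: agagtcagaaTGACAAAGCAgaaatccact
TXNRD1, first start, shorter form: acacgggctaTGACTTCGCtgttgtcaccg
ME1, shorter form: tctcctgccaTGACTCAGCgcttctcgcag

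The same 10 letters, TGACTAAGCA, stand before the starts of GCLM and KEAP1. The GCLM stretch is chr1:93909446-93909475 on the plus strand, its centre 30 bases before the RefSeq start, and GENCODE v29 places part of a 5′ exon of GCLM there. The KEAP1 element is chr19:10502784-10502813 on the plus strand, 27 bases before the second RefSeq start and inside a 5′ exon of the longer KEAP1 transcript in GENCODE v29. The shorter KEAP1 match is chr19:10502806-10502835 on the minus strand, in the same exon. TXNRD1 has its longer form at chr12:104286919-104286948 on the minus strand, 98 bases before the second start and within a GENCODE v29 5′ exon, and its shorter form at chr12:104215670-104215699 on the plus strand, outside any annotated gene. The ME1 match is chr6:83431169-83431198 on the minus strand, 132 bases before the start, outside any annotated gene. It overlaps TGACTCA, the letters that AP-1 factors bind. TXNRD1 and ME1 each had 1 further match to the shorter form, across or after the start, which is not shown. A match of letters is a description of the sequence and not evidence of binding in these cells.

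**Figure D1:**
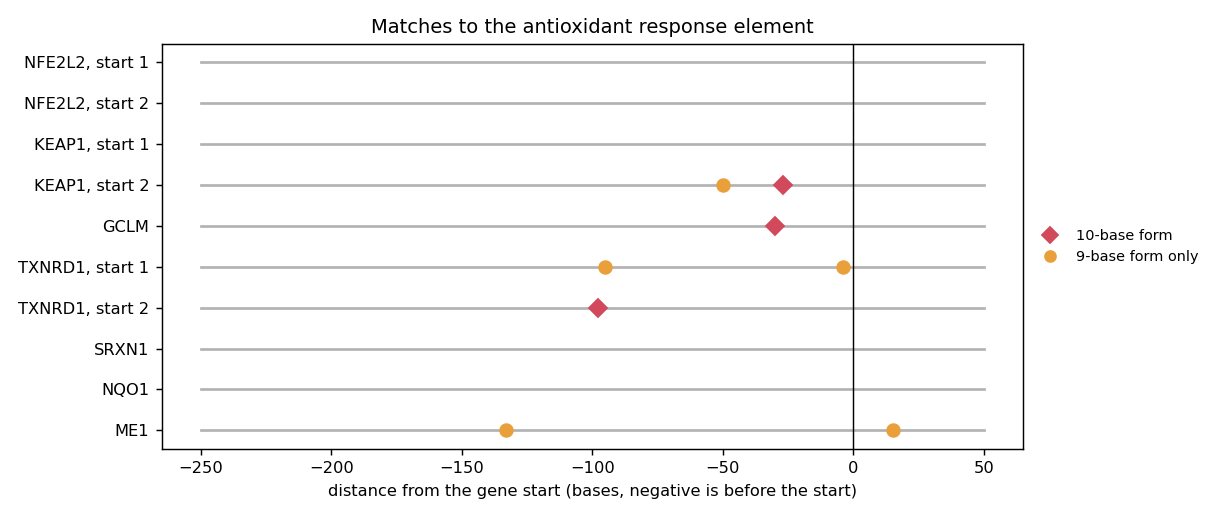
Positions of the matches to the antioxidant response element (x axis: distance from the RefSeq gene start in bases; one line per start of each gene in the promoter table). Diamonds mark the 10-base form, found for KEAP1, GCLM and TXNRD1, and circles matches to the 9-base form only; NFE2L2, SRXN1 and NQO1 have none.

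For each clone and experiment the authors' deposited table compares doxycycline with no doxycycline and gives a level (whichever group mean is higher, taken as RPKM, reads scaled to exon length and library depth), a signed fold change and a q-value, which is an adjusted p. There is no value per library, so no SD can be given and the q-value is the only measure that takes the wells into account. A gene is called changed where the deposited q-value is under 0.05. The other group mean was derived by dividing the listed level by the fold. PARG was positive in all 4 comparisons and fixes the direction of every fold; the authors' deposited table lists it 1.35-fold (N) and 1.40-fold (B) higher for I4, and 2.15-fold (N) and 1.99-fold (B) higher for H6. The epithelial keratins KRT8 and KRT18 were listed at 25.1 to 127 RPKM in the authors' deposited table and the leukocyte marker PTPRC at no more than 0.0515 RPKM. Library depth, estimated from the smallest steps between values of very low genes, was 33.6 to 43.2 M reads in experiment N and 19.8 to 26.5 M reads in experiment B.

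Of the 9 genes, ME1 and SLC7A11 rose with doxycycline in both clones and both experiments, and none fell in all 4 comparisons. In the single comparisons of the authors' deposited table, the genes called were KEAP1, SLC7A11, NQO1 and ME1 in I4 in experiment N, and NFE2L2, GCLM, SLC7A11, NQO1 and ME1 in H6 in experiment N. In experiment B they were GCLM, SLC7A11 and ME1 in I4, and SLC7A11, TXNRD1 and ME1 in H6. These are 4, 5, 3 and 3 of 9, against 15.7%, 13.6%, 14.0% and 7.56% of all genes tested in the same order. By direction, 7.18%, 6.57%, 7.46% and 3.63% of all genes tested were called higher and 8.53%, 7.07%, 6.59% and 3.93% lower. Among genes of at least 1 RPKM, as all 9 are, the called share was 22.9%, 20.4%, 19.4% and 10.5%. Called in all 4 with a single sign were 2 of the 9, against 3.69% of the 15063 genes tested in all 4 and 4.99% of the 10324 among them with at least 1 RPKM. Of these 10324, 2.31% were called higher and 2.68% lower in all 4. The calls went both ways: GCLM fell in 2 comparisons and KEAP1 in 1, while NQO1 rose in 2 and NFE2L2 and TXNRD1 in 1 each. The median log2 fold of the 9 genes was 0.04 in I4 and 0.23 in H6 in experiment N, and -0.08 and 0.05 in experiment B. Over all genes of at least 1 RPKM the median was -0.01 to 0.01.

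**Figure D2:**
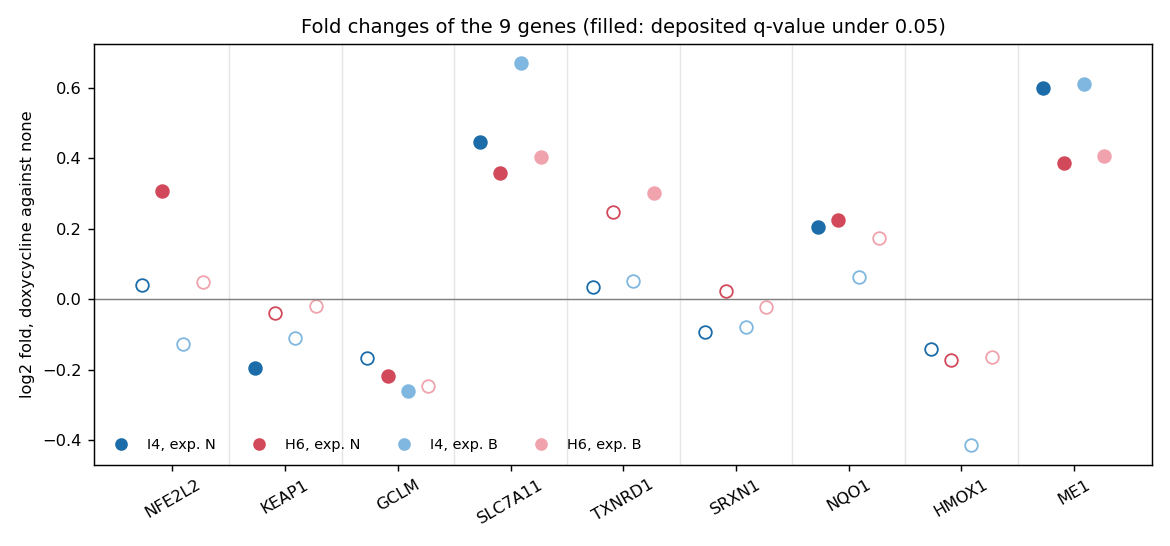
Log2 folds with doxycycline (y axis) of the 9 genes in each clone and experiment of the authors' deposited table; filled points have a q-value under 0.05. All 4 points of SLC7A11 and ME1 are filled and above 0, while those of GCLM, KEAP1 and HMOX1 lie below 0, with 3 of these 12 called.

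Levels differed widely between the genes. TXNRD1 was the most abundant at 139.7 to 272 RPKM (the higher group mean of each comparison in the authors' deposited table), above at least 97.0% of the genes of 1 RPKM or more. SRXN1 followed at 36.0 to 36.7, NQO1 at 31.9 to 38.4, KEAP1 at 23.8 to 37.9 and ME1 at 19.7 to 24.1 RPKM in the authors' deposited table. GCLM was listed at 8.42 to 11.9 and NFE2L2 at 7.92 to 11.3 RPKM in the authors' deposited table. SLC7A11 at 3.21 to 3.82 and HMOX1 at 2.41 to 3.93 RPKM were the lowest in the authors' deposited table. The ranges of SRXN1, NQO1 and KEAP1 overlap, as do those of GCLM and NFE2L2 and of SLC7A11 and HMOX1. The order of these neighbours changed between comparisons. The ranges of KEAP1 and ME1 overlap too, but KEAP1 was the higher in each of the 4 comparisons. With the exon lengths of GENCODE v29, HMOX1 rested on about 131 to 356 reads per library, SLC7A11 on 825 to 1380 and TXNRD1 on 28200 to 52600; the other 6 genes rested on 1060 to 5340.

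**Figure D3:**
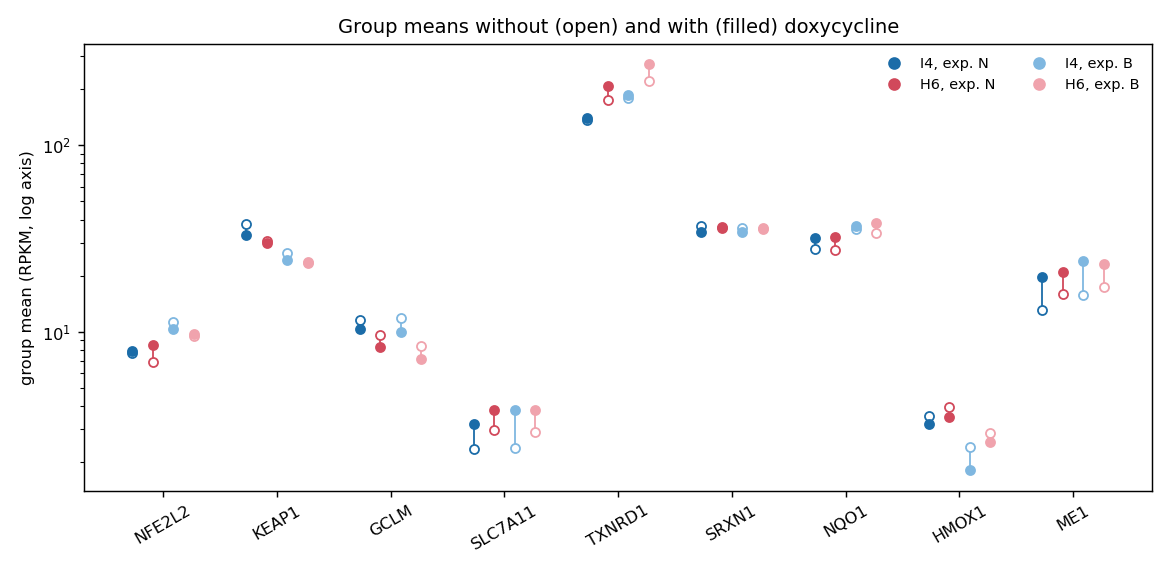
Group means in RPKM (log axis) of the 9 genes without (open) and with (filled) doxycycline, the higher one as deposited and the lower one derived from the fold. TXNRD1 lies above 100 RPKM in all 8 groups, and the filled points of ME1 and SLC7A11 lie above the open ones throughout.

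The transcript of NRF2 itself, NFE2L2 (ENSG00000116044, chromosome 2 from 177227595 to 177392697, minus strand, GRCh38), changed in a single comparison. In experiment N its group means without and with doxycycline were 7.69 and 7.92 RPKM for clone I4 and, for clone H6, 6.85 and 8.48 RPKM. In experiment B they were 11.3 and 10.3 RPKM for clone I4 and, for clone H6, 9.45 and 9.77 RPKM. The authors' deposited table gives a 1.24-fold rise in H6 in experiment N (q = 0.000531). Its other q-values were 1.00 in I4 in experiment N, 0.388 in I4 in B and 1.00 in H6 in B, with folds of 1.03 higher, 1.09 lower and 1.03 higher in the authors' deposited table. The rise in H6 was not called in experiment B. Other transcripts overlap 21.7% of the exon length of NFE2L2, so some of its reads can belong to them.

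KEAP1 (ENSG00000079999, chromosome 19 from 10486120 to 10503741, minus strand) was listed lower with doxycycline in all 4 comparisons and passed the test in 1. Group means without and with doxycycline were 37.9 and 33.1 RPKM for clone I4 and, for clone H6, 30.7 and 29.9 RPKM in experiment N. In experiment B they were 26.3 and 24.4 RPKM for clone I4 and, for clone H6, 23.8 and 23.5 RPKM. In I4 in experiment N KEAP1 fell 1.14-fold in the authors' deposited table (q = 0.0366). The remaining folds were 1.01 to 1.08 lower, with q-values of 0.473 to 1.00 in the authors' deposited table. KEAP1 and NFE2L2 were each called in 1 comparison, and not in the same one, which with so few calls says nothing of how they relate.

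Of the glutathione genes, SLC7A11 rose in all 4 comparisons and GCLM fell in H6 in experiment N and in I4 in experiment B. SLC7A11 (ENSG00000151012, chromosome 4 from 138164097 to 138242349, minus strand) encodes the light chain of the cystine/glutamate exchanger, which imports the cystine that limits glutathione synthesis. Its group means without and with doxycycline were 2.36 and 3.21 RPKM for clone I4 and, for clone H6, 2.96 and 3.804 RPKM in experiment N. In experiment B they were 2.38 and 3.79 RPKM for clone I4 and, for clone H6, 2.89 and 3.82 RPKM. All 4 treated means lie above all 4 untreated means. In the authors' deposited table SLC7A11 rose 1.36-fold (q = 1.95e-07) and 1.59-fold (q = 1.18e-14) in I4, in experiments N and B. In H6 it rose 1.28-fold (q = 4.50e-05) and 1.32-fold (q = 0.000325) in the authors' deposited table. An antisense gene, SLC7A11-AS1, overlaps 8.97% of its exon length, and experiment N kept both strands. The part of this overlap in the result was not tested.

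SLC3A2, the heavy chain that carries SLC7A11 to the membrane, did not rise in any comparison; it was singled out after its values were seen. In the authors' deposited table it fell 1.17-fold in I4 in experiment N (q = 0.0111), was 1.13-fold lower in I4 in B (q = 0.0954) and was 1.01-fold higher in both H6 comparisons (q = 1.00 in each).

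GCLM (ENSG00000023909, chromosome 1 from 93885205 to 93909456, minus strand) encodes the modifier subunit of glutamate-cysteine ligase, the enzyme of the first step of glutathione synthesis. It was listed lower with doxycycline in all 4 comparisons. Group means without and with doxycycline were 11.5 and 10.3 RPKM for clone I4 and, for clone H6, 9.61 and 8.26 RPKM in experiment N, and 11.9 and 9.93 RPKM for clone I4 and, for clone H6, 8.42 and 7.11 RPKM in experiment B. In the authors' deposited table GCLM fell 1.198-fold in I4 in B (q = 0.00687) and 1.16-fold in H6 in N (q = 0.0265). In I4 in N it was 1.12-fold lower (q = 0.117) and in H6 in B 1.19-fold lower (q = 0.0698) in the authors' deposited table. The 4 log2 folds of GCLM span 0.09, the narrowest range among the 9 genes, although the test was passed in only 2 of the comparisons.

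GCLC, the catalytic subunit of the same ligase, went the other way in clone H6; it too was singled out after its values were seen. It rose 1.17-fold in N (q = 0.0174) and 1.23-fold in B (q = 0.00811) in H6 of the authors' deposited table. In I4 GCLC was 1.04-fold higher in both experiments of the authors' deposited table, with q-values of 0.870 and 0.966. The transcripts of both subunits were called in opposite directions in H6 in experiment N.

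TXNRD1 (ENSG00000198431, chromosome 12 from 104215779 to 104350305, plus strand), the cytosolic selenoenzyme that reduces thioredoxin with NADPH, was called in H6 in experiment B only. Its group means without and with doxycycline in I4 were 136.3 and 139.7 RPKM in N and 179.4 and 186 RPKM in B. In H6 they were 175.4 and 208.3 RPKM in N and 221 and 272 RPKM in B. The authors' deposited table gives a 1.23-fold rise in H6 in B (q = 0.00192) and a value 1.19-fold higher in H6 in N that missed the threshold (q = 0.0951). In I4 the folds were 1.03 and 1.04 higher, with q-values of 1.00 and 0.955 in the authors' deposited table. Its log2 fold was 0.21 larger in H6 than in I4 in experiment N and 0.25 larger in B, a difference that was not tested. The median absolute difference between the clones over the 10324 genes of at least 1 RPKM was 0.09 in N and 0.09 in B.

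SRXN1 (ENSG00000271303, chromosome 20 from 646615 to 653370, minus strand) encodes sulfiredoxin, which restores over-oxidised peroxiredoxins. It was not called in any comparison. The group means without and with doxycycline were 36.7 and 34.4 RPKM for clone I4 and, for clone H6, 35.8 and 36.4 RPKM in experiment N, and 36.0 and 34.2 RPKM for clone I4 and, for clone H6, 36.0 and 35.5 RPKM in experiment B. All 8 means of SRXN1 lie between 34.2 and 36.7 RPKM. Its folds were at most 1.07, with q-values of 0.546 to 1.00 in the authors' deposited table. On the same strand, AL121758.1 shares 85.0% of the SRXN1 exon length, so reads counted for SRXN1 depend on how shared exons were assigned; the authors' deposited table lists AL121758.1 at no more than 0.0132 RPKM. TXN, the thioredoxin that TXNRD1 reduces, was not called either and is named after its values were seen; its q-values in the authors' deposited table were 0.213 to 1.00.

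NQO1 (ENSG00000181019, chromosome 16 from 69706996 to 69726951, minus strand) encodes a quinone reductase that uses NADH or NADPH. Its mean was higher with doxycycline in all 4 comparisons. Group means without and with doxycycline were 27.7 and 31.9 RPKM for clone I4 and, for clone H6, 27.4 and 32.1 RPKM in experiment N, and 35.6 and 37.1 RPKM for clone I4 and, for clone H6, 34.0 and 38.4 RPKM in experiment B. In experiment N NQO1 rose 1.15-fold in I4 (q = 0.0262) and 1.17-fold in H6 (q = 0.0133) in the authors' deposited table. In experiment B it was 1.04-fold (q = 0.891) and 1.13-fold (q = 0.232) higher in the authors' deposited table, which did not pass. An antisense transcript overlaps 17.7% of its exon length, and experiment N kept both strands; the part of this overlap in the result was not tested.

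HMOX1 (ENSG00000100292, chromosome 22 from 35380361 to 35394214, plus strand) encodes the inducible haem oxygenase, which opens haem to biliverdin, iron and carbon monoxide. It was not called in any comparison, and all 4 of its means were lower with doxycycline. Without and with doxycycline the group means were 3.52 and 3.19 RPKM for clone I4 and, for clone H6, 3.93 and 3.49 RPKM in N, and 2.41 and 1.81 RPKM for clone I4 and, for clone H6, 2.87 and 2.57 RPKM in B. In the authors' deposited table the folds were 1.10 to 1.13 lower in 3 comparisons and 1.33 lower in I4 in B (q = 0.149), which has the fewest reads for this gene, about 131 per library. The other q-values of HMOX1 were 0.519 to 0.940 in the authors' deposited table.

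ME1 (ENSG00000065833, chromosome 6 from 83210389 to 83431071, minus strand) encodes the cytosolic malic enzyme, which makes NADPH while turning malate into pyruvate. Group means without and with doxycycline were 13.0 and 19.7 RPKM for clone I4 and, for clone H6, 15.9 and 20.8 RPKM in experiment N. In experiment B they were 15.8 and 24.1 RPKM for clone I4 and, for clone H6, 17.3 and 22.99 RPKM. Every treated mean lies above every untreated mean, across clones and experiments. In the authors' deposited table ME1 rose 1.52-fold and 1.53-fold in I4, both with a q listed as 0. In H6 it rose 1.31-fold (q = 2.16e-06) and 1.33-fold (q = 3.82e-05) in the authors' deposited table, in experiments N and B. The log2 fold was 0.21 and 0.20 smaller in H6 than in I4, in N and B, and that of SLC7A11 0.09 and 0.27 smaller; these differences were not tested. The log2 fold of PARG was 0.67 and 0.51 larger in H6. Those of NFE2L2, KEAP1, TXNRD1, SRXN1 and NQO1 were also larger (for KEAP1 less negative) in H6 in both experiments. GCLM and HMOX1 differed in sign between the experiments. No relation to the size of the PARG rise was tested. By the mean of the 4 log2 folds, 0.50 for ME1 and 0.47 for SLC7A11, they rank 104 and 116 among the 238 genes of at least 1 RPKM that rose in all 4.

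The untreated means of these genes were also compared between the clones, as a description without a test. Untreated TXNRD1 was 1.29 times its I4 mean in H6 in experiment N and 1.23 times in B. Untreated SLC7A11 was 1.26 and 1.21 times, ME1 1.23 and 1.10 times and HMOX1 1.12 and 1.19 times the I4 mean in H6. GCLM, KEAP1 and NFE2L2 were higher in untreated I4, with H6 means at 0.832 and 0.708, 0.811 and 0.905, and 0.890 and 0.837 times the I4 means. SRXN1 and NQO1 had ratios of 0.957 to 0.999. The median ratio over all genes of at least 1 RPKM was 1.02 in both experiments. With doxycycline the H6 to I4 ratio of TXNRD1 was 1.49 in N and 1.46 in B, while that of ME1 was 1.06 and 0.954.

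**Figure D4:**
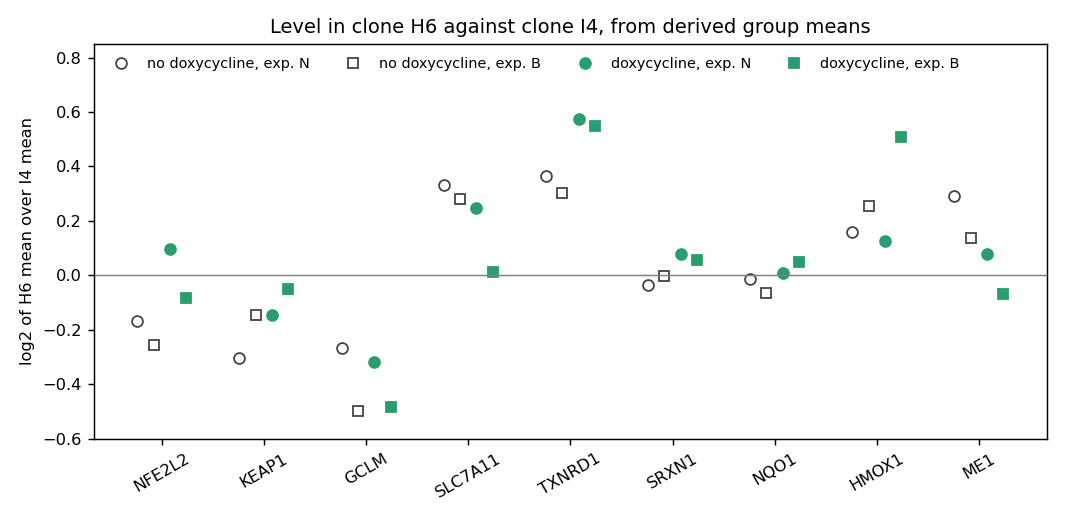
Log2 of the mean in clone H6 over the mean in clone I4 (y axis) for the 9 genes, without (open) and with (filled) doxycycline, circles for experiment N and squares for B. TXNRD1 lies above 0 and GCLM below 0 in all 4 settings; no error can be given.

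The wider pathway was described with 6 lists of 104 further genes, of which 101 were tested in all 4 comparisons. Across them 3 rose in all 4 comparisons, 3 fell in all 4 and 95 were not called throughout. This is 2.97% in each direction, against 1.73% of all genes tested higher and 1.97% lower. Most of the listed genes are of at least 1 RPKM, and among all genes of that level the shares were 2.31% and 2.68%. Those that rose were the multidrug transporter gene ABCC3, which exports glutathione conjugates, the epoxide hydrolase gene EPHX1 and PIR, an NRF2 target gene. In the authors' deposited table ABCC3 was 1.15-fold to 1.27-fold, EPHX1 1.16-fold to 1.38-fold and PIR 1.25-fold to 1.41-fold higher. Those that fell were SQSTM1, TFRC and AKR1C1. SQSTM1, whose p62 protein sequesters KEAP1 and which is itself an NRF2 target, fell 1.14-fold to 1.58-fold from 100.1 to 124.5 RPKM in the authors' deposited table. TFRC, the transferrin receptor that brings iron into the cell, fell 1.17-fold to 1.44-fold, and the aldo-keto reductase gene AKR1C1 1.49-fold to 2.21-fold from 0.868 to 1.16 RPKM in the authors' deposited table. AKR1C1 has close paralogs, so reads can be split among them. The lists were chosen with earlier results of these data known, and the fall of AKR1C1 was among those.

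Of the 14 regulators of NRF2, SQSTM1 fell throughout, against 1.97% of all genes tested, and 10 were called in no comparison. The share of all genes called in no comparison is not given, so such counts, here and below, cannot be set against it. In I4 N, H6 N, I4 B and H6 B, 3, 3, 1 and 2 were called lower and none higher. Of all genes tested, 8.53%, 7.07%, 6.59% and 3.93% were called lower and 7.18%, 6.57%, 7.46% and 3.63% higher. PALB2, which can compete with NRF2 for KEAP1, is listed lower in all 4 comparisons of the authors' deposited table and fell in 3, 1.18-fold at the least and 1.27-fold at the most; in I4 in B it was 1.08-fold lower (q = 0.674).

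The list of cystine uptake and glutathione genes showed most of its calls in experiment N. Of 30 tested in all 4 comparisons, 10 were called higher and 1 lower in I4 in N and 12 higher and none lower in H6 in N, against 7.18% and 6.57% of all genes tested called higher there and 8.53% and 7.07% called lower. In experiment B 4 were called higher in I4 and 2 in H6 and none lower, against 7.46% and 3.63% of all genes tested called higher and 6.59% and 3.93% lower. Among all genes of at least 1 RPKM, 22.9% in I4 and 20.4% in H6 were called in either direction in N, and 19.4% and 10.5% in B. The median log2 fold of the 26 members of the list of at least 1 RPKM was 0.16 in I4 and 0.19 in H6 in N. In B it was 0.04 and 0.08. GSTA4 and GSTK1, glutathione S-transferases, were called higher in 3 comparisons each, and the microsomal MGST3 in 2. Over the 4 comparisons of the authors' deposited table GSTA4 was 1.17-fold to 1.43-fold, GSTK1 1.14-fold to 1.37-fold and MGST3 1.02-fold to 1.55-fold higher. The difference between experiments was not tested; they differ in passage, library kit and depth.

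Of 17 genes of the thioredoxin and peroxiredoxin system none was called in all 4 comparisons. In I4 N, H6 N, I4 B and H6 B, 5, 2, 1 and 0 were called higher, against 7.18%, 6.57%, 7.46% and 3.63% of all genes tested. Among genes of at least 1 RPKM, 22.9%, 20.4%, 19.4% and 10.5% were called in either direction. PRDX6, a peroxidase at 432.8 to 459.8 RPKM, was called higher in both I4 comparisons, by 1.23-fold (q = 0.0270) and 1.16-fold (q = 0.0208) in the authors' deposited table. In H6 it was 1.19-fold higher in N (q = 0.0802) and 1.13-fold higher in B (q = 0.169) in the authors' deposited table, which did not pass. Besides ME1, 14 genes of NADPH supply were tested. None was called in all 4, against 3.69% of all genes tested, and 10 were called in none, with no share of all genes to set beside this. In the same order of comparisons, 0, 1, 0 and 1 were called higher and 2, 1, 0 and 0 lower. Of all genes tested, 8.53%, 7.07%, 6.59% and 3.93% were called lower. The folate enzyme gene MTHFD1 fell 1.18-fold in I4 and 1.19-fold in H6 in experiment N (q = 0.00464 and 0.00229) and was 1.14-fold and 1.16-fold lower in B (q = 0.0534 and 0.0797) in the authors' deposited table. Among the 11 tested for haem breakdown and iron, TFRC fell in all 4 and none rose in all 4. Of all genes tested, 1.97% fell and 1.73% rose in all 4. By comparison, 2, 2, 1 and 0 of the 11 were called higher and 1, 1, 1 and 1 lower. ALAS1, the first enzyme of haem synthesis, rose in 3 comparisons of the authors' deposited table, between 1.16-fold and 1.29-fold, and was 1.13-fold higher in H6 in B (q = 0.299). Of 15 other NRF2 target genes tested in all 4, EPHX1 and PIR rose and AKR1C1 fell, against the same 1.73% and 1.97%. Called in no comparison were 7, again with no share of all genes to set beside this. By comparison, 3, 3, 3 and 2 of the 15 were called higher and 3, 1, 4 and 1 lower. TRIM16 fell 1.17-fold and 1.21-fold in I4 in N and B (q = 0.0304 and 0.0212), and was 1.10-fold and 1.12-fold lower in H6 (q = 0.648 and 0.602), in the authors' deposited table.

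**Figure D5:**
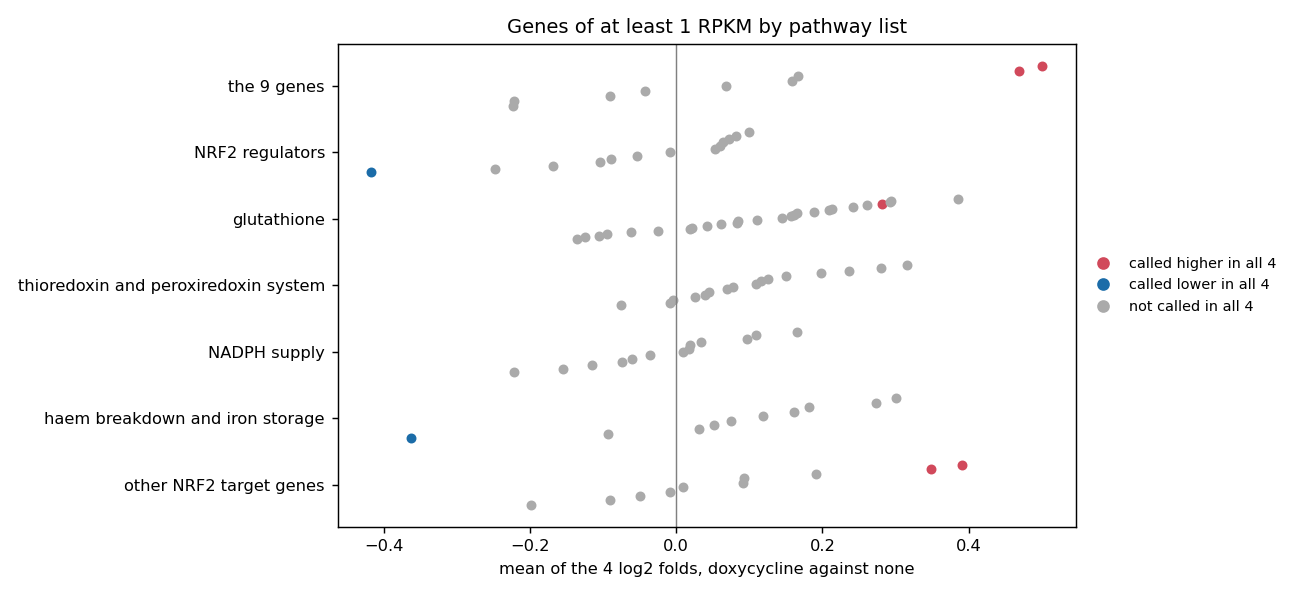
Mean of the 4 log2 folds with doxycycline (x axis) for the 9 genes and for each pathway list, 1 point per gene of at least 1 RPKM in all 4 comparisons, red for genes called higher in all 4 and blue for genes called lower in all 4. Most points are grey and lie near 0; AKR1C1 is under 1 RPKM in part of the comparisons and is not plotted.

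Folds were also set beside the presence of the element in the promoter, as a description with no test. The median of the mean log2 folds was 0.02 for the 324 genes of at least 1 RPKM with the longer form and -0.0004 for the 8018 without it. Of those with it, 8 rose and 5 fell in all 4 comparisons (2.47% and 1.54%), against 2.29% and 2.58% of those without. For the shorter form the medians were 0.0009 for the 1617 genes with it and -0.0002 for the 6725 without, and 2.29% rose and 2.47% fell in all 4 with it, against 2.30% and 2.56% without. ME1, which rose throughout, has the shorter form only. Of the 3 genes printed above with the longer form, KEAP1 and GCLM were lower and TXNRD1 higher with doxycycline in the 4 comparisons. SLC7A11 is not in the promoter table.

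The genes whose 4 log2 folds lay nearest to those of ME1, by Euclidean distance among 10306 genes of at least 1 RPKM, were CD164 (distance 0.0536), PAX9 (0.0840) and WNK4 (0.0939). For SLC7A11 they were NR1D2 (0.0687), KAT2B (0.111) and PAX9 (0.114). SLC7A11 stood at rank 18 among the neighbours of ME1 and ME1 at rank 8 among those of SLC7A11, at a distance of 0.167. These rest on 4 values per gene and describe the size of the folds only.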

How the data were processed

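RNA of PC-3 clones was sequenced from 23 libraries in 8 groups formed from clone, experiment and doxycycline in the labels. The deposited table holds comparisons, not libraries. Per the file headers, the level is the higher group mean that the authors computed, taken here as RPKM; the headers do not name the unit, which was read from column sums of 283580 to 301832 and from fixed steps of level times exon length in the lowest genes. Per the file headers, the authors' fold change is a signed ratio, and the authors' deposited q-value is an adjusted p. The aligner, counter and test were not given in the sources used here, nor was the adjustment. The genome was hg38 (per the submitters' processing notes). The labels name replicates of single clones, taken here as separate wells, so q-values take account of the spread between wells at most.

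The planned edgeR test of counts could not be run without counts, so a call is the authors' deposited q-value under 0.05. Log2 was taken of the folds. The lower group mean is the level divided by the fold; of 1741 values at the level of a single read, 1533 have a finite fold above 2 although the other group then holds less than 1 read, so folds are not plain ratios of the means there and derived means are approximate. Of 21463 rows, 27 have date-like names, and 2 names repeat; these rows stayed in the counts over all genes. GENCODE v29 (GRCh38) held 99.6% of the names. Depth assumed 3 libraries in the group that sets the step. Code was written in Python 3.11.15 with pandas 2.3.3, numpy 2.4.6 and matplotlib 3.10.9, and tested on simulated data.

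The genes, lists, alternatives and tests were chosen with earlier results of these data known. Named are the 9 genes, list genes called in all 4 comparisons, and the 3 nearest neighbours of ME1 and SLC7A11. Up to 3 further genes per list are named, those with the largest absolute mean log2 fold. They were taken from genes of at least 1 RPKM called in 2 or more comparisons. GCLC, SLC3A2 and TXN fall outside these rules and were chosen after their values were seen.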

Additional observations from a re-analysis of the deposited data

How the results depend on the processing

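ME1 and SLC7A11 were the genes called higher in all 4 comparisons at a q-value under 0.01, under 0.1 and with an absolute log2 fold of at least 0.25; NQO1 joined them within experiment N alone, where the count was 3, and the count was 2 within experiment B and within each clone. The count called lower in all 4 was 0 under all of these, and the table has no unadjusted p. In single comparisons the count of called genes moved from 4 to 2 in I4 and from 5 to 3 in H6 in experiment N, both at a q-value under 0.01 and with the minimum fold. Of the further pathway genes, 0 rose and 0 fell in all 4 at a q-value under 0.01, and 1 rose (PIR) and 1 fell (AKR1C1) with the minimum fold. Shares over all genes are given for the main threshold only. Whether all genes lose or gain calls to a like degree under these alternatives is therefore not known. Restricted to genes of at least 10 RPKM, the median log2 fold turned to -0.028 in I4 in experiment N and moved to 0.18 in H6 in B. Subtracting the median of all genes changed no direction of the 9 genes. The share of promoters with the element was 3.94% for the longer form and 13.2% in the 250 bases before the start. No paired analysis was possible because the table has no value per library, and leaving out libraries, DESeq2 and a filter on low counts could not be run for the same reason. Depth limits HMOX1 most, and the spread between wells is not listed and enters only through the q-values.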

Other observations

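Untreated levels of several of these genes differed between the experiments in the same direction in both clones. The mean without doxycycline in experiment B was 1.47 times that in N for NFE2L2 in I4 and 1.38 times in H6, 1.32 and 1.26 times for TXNRD1 and 1.28 and 1.24 times for NQO1. KEAP1 was at 0.694 times its experiment N mean in I4 and 0.774 times in H6, and HMOX1 at 0.684 and 0.731 times. ME1 was at 1.21 and 1.09 times, GCLM at 1.03 and 0.877 times, SRXN1 at 0.982 and 1.01 times and SLC7A11 at 1.01 and 0.974 times. Passage, library kit and sequencing centre all differ between N and B and cannot be told apart, and the ratios have no test.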
